A study of Mus musculus with 4 samples.

Results

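Claudins are membrane proteins that span the membrane several times and join cell to cell as the strands of tight junctions. The 9 claudins described here are Cldn1, Cldn3, Cldn4, Cldn5, Cldn6, Cldn7, Cldn10, Cldn11 and Cldn12, taken by gene symbol out of 32285 gene rows, in the embryonic mouse nose. All 9 symbols were found once each, and all 9 had UMIs (unique molecular tags, each marking 1 captured transcript). Which claudins a cell makes sets how tight its sheet is and which ions cross between the cells, so epithelia and vessels are known by their claudin combinations. Cldn1 is required for the skin barrier, Cldn3 and Cldn4 are neighbours on the chromosome and occur in many simple epithelia, and Cldn6 and Cldn7 are epithelial, the former mostly in the embryo. Cldn5 is the main claudin of endothelium, Cldn10 forms ion pores, Cldn11 is known from myelin and from the arachnoid barrier of the meninges, and Cldn12 is broadly expressed.

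The tissue was the entire nose of embryos at day 14.5, dissociated with papain and collagenase, frozen as cells, and profiled with 10x Genomics droplet 3-prime sequencing. There were 2 control libraries (titled WT) and 2 mutant libraries (titled Sox10Cre/Yap/Taz cKO), and the protocol speaks of 2 noses of each genotype without saying outright that each library was a separate embryo. The sample labels give the controls as C57Bl/6J, whereas the series design gives them as yap flox/flox;taz flox/flox without Cre, so what the controls carry was not settled. The mutants carry the transgene Tg(Sox10-cre)1Wdr with the alleles Yapflox and Tazflox on C57Bl/6J, and the design gives Sox10cre;yap flox/WT;taz flox/flox, that is with a Yap allele left intact. The Cre is driven by Sox10, a gene of neural crest and its glia. Sox10 itself was at 0 UMIs in the endothelium of all 4 libraries and at 1 to 12 UMIs in the epithelium of each. In mesenchyme it had 8 and 3 UMIs in controls 1 and 2, and 10 and 9 in mutants 1 and 2. Where the Cre had acted was not read from these counts. Yap and Taz are transcriptional coactivators of the Hippo pathway, and the question the series title states is what their loss in neural crest does to the developing nose.

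Barcodes under 500 genes or over 10% mitochondrial UMIs were dropped, which left 4075 and 2474 cells in controls 1 and 2, and 2995 and 4195 in mutants 1 and 2, with 19767873 to 35331450 UMIs per library and median depths of 5282 to 8549 UMIs per cell. Libraries shared 4 to 8 barcodes per pair. Cells were sorted into classes by counting detected marker genes, none of them a claudin, which gave 1260 cells of epithelium, 170 of endothelium and 10136 of mesenchyme; cells passing more than 1 gate (228) were set aside, except that cells passing both the olfactory neuronal and the epithelium gate were counted as neuronal lineage. Control 2 stood apart: it held 125 epithelial cells against 336 to 417 in the others, with 5 cells of olfactory epithelium against 39 to 47 and 0 of respiratory epithelium against 32 or 33. Yap1 over all cells was at 65.0 and 65.2 CPM (UMIs of the gene scaled to a common total per library or class) in controls and 56.4 and 56.0 CPM in mutants. Wwtr1 (Taz) was at 118 and 145 against 123 and 132 CPM. UMIs were counted by gene and not by exon, so whether the deletion had occurred was not read from these levels. CPM counts 3-prime ends and is not divided by transcript length, so levels are compared between cells and libraries and not between genes.

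Promoter sequence of the claudins that the class results turn on is shown because repressors of the epithelial state of the Snail and ZEB families bind the E-box CAGGTG, and grainyhead factors, which act in epithelia, bind AACNNGTT. All 9 claudins were matched to RefSeq promoters (GRCm38.p6), in 13 rows since some have several starts. On either strand (CACCTG on the other), the E-box was found in the 300-base window from 250 bases before to 50 after a start of 4 of the 9, Cldn3, Cldn4, Cldn6 and Cldn7, against 22.6% of 27025 genes. The grainyhead motif, its own reverse complement, was found for Cldn5 alone, against 4.77% of genes. The motifs were chosen after the sequences were seen, and a match is a description of letters. The 250 bases before the start are given whole for Cldn4 (chr5:134946935-134947184, minus strand) and Cldn5 (chr16:18776597-18776846, plus strand). For the others 26 bases around a match are given; the match of Cldn3 lies after its start. All are 5′ to 3′ on the gene's strand, with the matches in capitals.
Cldn4: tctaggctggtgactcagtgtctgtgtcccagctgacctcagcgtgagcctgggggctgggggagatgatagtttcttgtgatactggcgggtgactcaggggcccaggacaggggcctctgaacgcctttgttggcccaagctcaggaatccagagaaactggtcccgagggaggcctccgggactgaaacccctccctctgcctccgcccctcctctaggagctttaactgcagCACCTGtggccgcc
Cldn5: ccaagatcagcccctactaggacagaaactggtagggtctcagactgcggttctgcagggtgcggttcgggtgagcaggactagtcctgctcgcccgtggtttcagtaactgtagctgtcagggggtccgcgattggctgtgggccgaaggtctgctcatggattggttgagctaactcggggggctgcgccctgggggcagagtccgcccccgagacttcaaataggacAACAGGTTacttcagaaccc
Cldn3 at chr5:134986235-134986260: aagccacaggCAGGTGcaggggcagt
Cldn6 at chr17:23679262-23679287: gaaacgcacgCAGGTGgctatcgccg
Cldn7 at chr11:69965314-69965339: tcttcctcttCACCTGgacgaggagg
Cldn7 at chr11:69965354-69965379: acttccggttCAGGTGagtgtccctt

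In the GENCODE M21 annotation of GRCm38, Cldn3 (ENSMUSG00000070473, chr5:134986214-134987472, plus strand) and Cldn4 (ENSMUSG00000047501, chr5:134945119-134946934, minus strand) lie 39.279 kb apart with 0 genes between them. Counted from the RefSeq start, the E-box of Cldn3 began at 32, those of Cldn4 at -14 and 12, those of Cldn6 at -93 and 41, those of Cldn7 at -97 and -57, and the grainyhead motif of Cldn5 at -20. The exon of Cldn3 overlaps Wbscr25 on the other strand, and whether the counting used strand is not given in the sources used here, so reads of the pair may not be told apart; Wbscr25 had 74 UMIs in all cells. Cldn6 (chr17:23679249-23682446) ends 137 bases from Cldn9. Cldn5 lies at chr16:18776847-18778262, Cldn7 at chr11:69964779-69967885, Cldn1 at chr16:26356642-26371841, Cldn10 at chr14:118787908-118875489, Cldn11 at chr3:31149920-31164324 and Cldn12 at chr5:5489537-5514958. Cldn10 has 2 RefSeq starts, and 3-prime tags cannot tell its isoforms apart.

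The claudins divided by broad class. Epithelium, 9.17% of cells, held 89.9% of all Cldn4 UMIs (2134 in total), 79.1% of Cldn6 (1218), 74.1% of Cldn1 (559), 73.5% of Cldn7 (3701), 71.5% of Cldn3 (3302) and 57.7% of Cldn10 (1342). The olfactory neuronal lineage, 0.699% of cells, held a further 17.7% of Cldn3, 15.9% of Cldn7 and 11.5% of Cldn6 UMIs. Endothelium, 1.24% of cells, held 74.8% of the 2713 Cldn5 UMIs, and a further 20.9% fell in cells passing more than 1 gate. Mesenchyme, 73.8% of cells, held 88.1% of the 1751 Cldn11 UMIs and 65.2% of the 728 Cldn12 UMIs. Classes were tested on UMIs summed per library, with the library as a block, by edgeR's quasi-likelihood test adjusted over 14843 genes (n = 4 libraries).

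Against mesenchyme, 7 of the 9 claudins were higher in epithelium and 1 was lower, where 59.1% of genes passed, 29.2% higher and 29.9% lower. Their median log2 difference was 4.13, against 0.00 for all genes. Cldn4 differed most, by 9.78 ± 0.18 (SE) on the log2 scale, followed by Cldn6 at 9.08 ± 0.23, Cldn3 at 7.82 ± 0.17, Cldn7 at 7.25 ± 0.16, Cldn1 at 4.13 ± 0.21 and Cldn10 at 2.84 ± 0.24. Cldn5 was called higher at 1.63 ± 0.56 (adjusted p = 0.0196), but on 12 UMIs in all of epithelium and 17 in mesenchyme, and the call was lost without control 2 (1.29), without mutant 2 (1.34) and under a gate of 1 further marker (1.53, adjusted p = 0.0729). Cldn11 was lower in epithelium by a log2 difference of -2.37 ± 0.28, and Cldn12 did not pass (0.22 ± 0.22, adjusted p = 0.413).

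Against endothelium, 6 of 9 were higher in epithelium and 1 lower, where 47.3% of genes passed, 27.1% higher and 20.2% lower. Cldn4 and Cldn6 had 0 UMIs in the 170 endothelial cells, so they were at least 106-fold and 53.0-fold higher in epithelium, taking a floor of 3 counts over the class. Cldn7 differed by 7.66 ± 0.37, Cldn3 by 7.51 ± 0.37, Cldn10 by 6.64 ± 0.85 and Cldn1 by 5.01 ± 0.54, the endothelium holding 1 or 2 UMIs of each. Cldn5 was the claudin lower in epithelium, by a log2 difference of -10.01 ± 0.20, and Cldn11 and Cldn12 did not pass. Between endothelium and mesenchyme, Cldn5 was higher in endothelium by 11.64 ± 0.19, and Cldn11 and Cldn10 were lower by -2.17 ± 0.49 and -3.79 ± 1.32, where 46.2% of genes passed, 19.9% higher and 26.3% lower. The Cldn10 call there rests on 1 UMI in endothelium and was lost without control 1 (adjusted p = 0.0962) and without mutant 2 (adjusted p = 0.101).

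**Figure D1:**
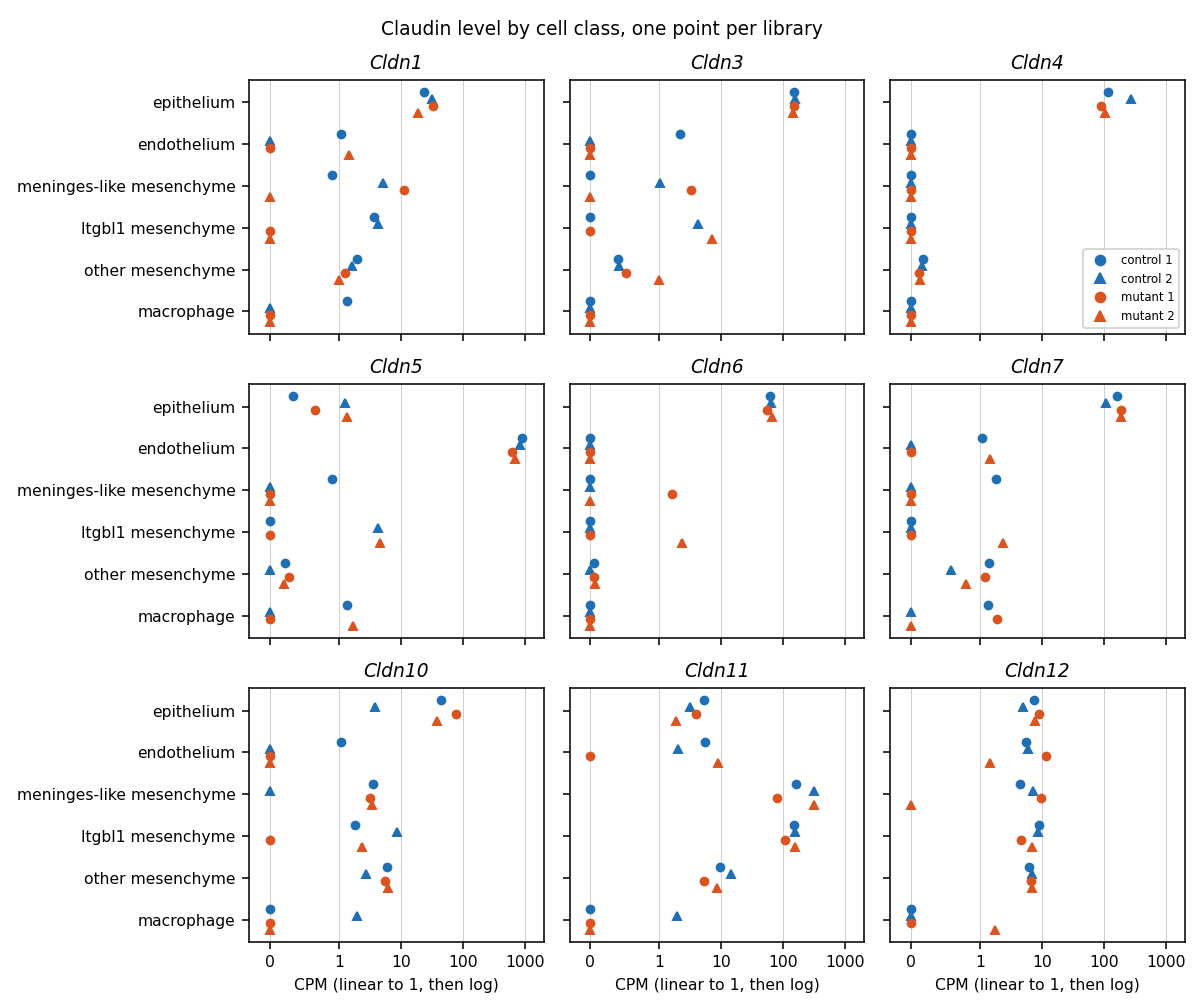
Level of each claudin in CPM (horizontal axis, linear up to 1 and logarithmic above) in 6 cell classes (vertical axis), 1 point per library, blue for control and orange for mutant, circle for replicate 1 and triangle for replicate 2. Among these 6 classes, Cldn3, Cldn4, Cldn6 and Cldn7 stand far to the right in epithelium alone. Cldn5 does so in endothelium (609 to 884 CPM) and Cldn11 in meninges-like and Itgbl1 mesenchyme, while Cldn12 lies between 5.03 and 9.13 CPM in all 4 libraries of epithelium. The olfactory neuronal lineage, which also held Cldn3, Cldn6 and Cldn7, is not drawn.

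Within epithelium, Cldn3 was concentrated in periderm, the thin outer cell layer of embryonic skin and mouth, and in olfactory and respiratory epithelium. Subclasses were gated by their own markers (Krt7 and Upk1b among those of periderm, for example), giving 530 basal and 206 suprabasal keratinocytes, 55 periderm cells, 97 respiratory and 130 olfactory epithelial cells. In periderm Cldn3 was at 825 and 848 CPM in the control libraries, against 751 and 563 CPM in the mutants (mean 747 ± 129, SD, n = 4). It was at 358 and 156 against 447 and 419 CPM in olfactory epithelium, at 232, 274 and 255 CPM in the 3 libraries with respiratory cells, and in basal keratinocytes at 16.5 and 13.8 against 15.2 and 15.3 CPM. Every library was higher in periderm than any was in olfactory or respiratory epithelium, and those were all above both kinds of keratinocyte, while the ranges of olfactory and respiratory epithelium overlapped. Suprabasal cells, at 4.66 to 32.9 CPM, overlapped the basal ones.

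Cldn4 was detected in all the epithelial subclasses. It rose from basal keratinocytes, at 49.0 and 58.1 CPM in the control libraries, against 43.2 and 35.8 CPM in the mutants, to suprabasal cells at 168 and 135 against 147 and 162 CPM. Periderm stood highest, at 681 and 1490.5 CPM in the control libraries, against 642 and 563 CPM in the mutants, although 1 cell of control 2 held 34.9% of its UMIs there and the level without that cell was 1299 CPM. Respiratory epithelium (110 to 160 CPM) overlapped the suprabasal range, and olfactory epithelium lay between 40.6 and 105 CPM. Mesenchyme had 10 Cldn4 UMIs in all its 10136 cells.

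Cldn6 and Cldn7 were highest in the olfactory and respiratory linings and in periderm. Cldn6 was at 141, 81.2, 140 and 165 CPM in olfactory epithelium (control 1, control 2, mutant 1, mutant 2), at 132, 178, 109 and 213 CPM in periderm, and at 27.9, 35.9, 27.0 and 17.9 CPM in basal keratinocytes, so periderm and olfactory epithelium overlapped and both were above the basal cells in every library. Cldn7 was at 438 CPM in control 1, 432 in mutant 1 and 411 in mutant 2 in respiratory epithelium (mean 427 ± 14.2, SD, n = 3). Olfactory epithelium was at 485, 142, 449 and 433 CPM, where the low value is from the 5 cells of control 2, and periderm at 215, 309, 168 and 457 CPM. These 3 ranges overlapped, and all lay above the basal keratinocytes at 18.6 to 59.5 CPM.

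Cldn1 had a pattern of its own among the epithelial claudins, with its highest levels in the layers of the skin. Suprabasal keratinocytes were at 99.5 and 79.3 CPM in the control libraries, against 112 and 68.7 CPM in the mutants (mean 89.9 ± 19.5, SD, n = 4). Basal keratinocytes were at 14.1 and 5.53 against 26.5 and 23.2 CPM, all below every suprabasal value, and periderm, at 31.9 to 119 CPM, overlapped the suprabasal range. Respiratory and olfactory epithelium held 3 Cldn1 UMIs each.

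Cldn10 marked respiratory epithelium, at 223 CPM in control 1, 299 in mutant 1 and 137 in mutant 2. Olfactory epithelium was at 23.1 to 31.2 CPM in these libraries, and basal keratinocytes at 25.5, 42.7 and 16.6 CPM, so the respiratory cells were above both in all 3. Control 2, which had no respiratory cells, was at 0 UMIs of Cldn10 in its 45 basal keratinocytes, 24 suprabasal cells and 16 periderm cells, and at 2.75 CPM in mesenchyme against 6.04 to 6.43 CPM in the others. A low level of Cldn10 also ran through the mesenchyme, with 410 UMIs in 337 cells and at most 7 in a cell. Low Cldn10 in control 2 was thus seen in more than 1 class; the part of the missing respiratory cells in it was not tested.

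**Figure D2:**
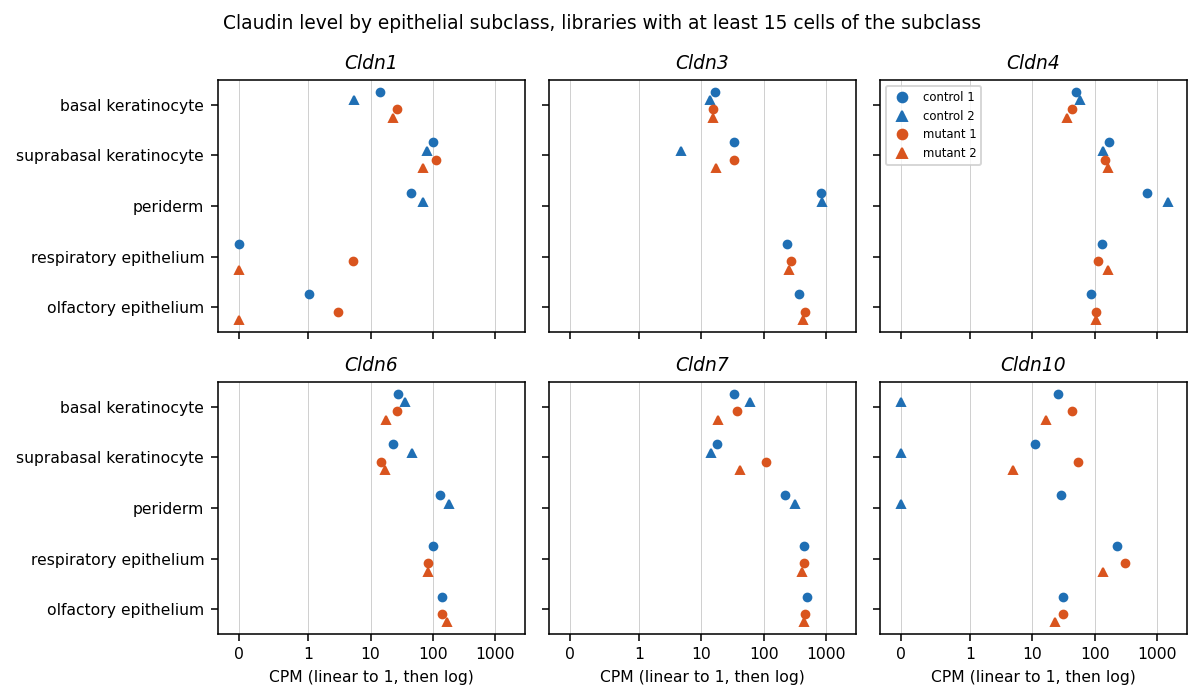
Level of 6 claudins in CPM (horizontal axis, linear up to 1 and logarithmic above) in 5 epithelial subclasses (vertical axis), 1 point per library with at least 15 cells of the subclass, blue for control and orange for mutant. Cldn3, Cldn6 and Cldn7 lie to the right in periderm, respiratory and olfactory epithelium, Cldn1 in suprabasal keratinocytes and periderm, and Cldn10 in respiratory epithelium, where the 3 libraries are at 137 to 299 CPM.

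Suprabasal against basal keratinocytes was the subclass comparison with at least 20 cells in every library. Of the 6 claudins tested, 2 were higher in suprabasal cells and 0 lower, where 28.7% of 9184 genes passed, 13.9% higher and 14.8% lower: Cldn1 by 2.42 ± 0.27 (edgeR adjusted p = 4.6e-06) and Cldn4 by 1.84 ± 0.17 (adjusted p = 6.3e-07). Cldn3 was at 0.74 ± 0.34 (adjusted p = 0.124) and passed only without control 2 (0.93, adjusted p = 0.0414). In a comparison of all 5 subclasses, added after the cell numbers were seen, a library entered a subclass with at least 15 cells, 9809 genes were tested, and each subclass was set against the mean of the others. In periderm 4 of 7 were higher and 0 lower, where 13.3% of genes passed, 9.2% higher and 4.15% lower: Cldn3 by 3.60 ± 0.19, Cldn4 by 3.26 ± 0.20, Cldn1 by 3.15 ± 0.55 and Cldn6 by 1.27 ± 0.23. Only the 2 controls had that many periderm cells, so the mutants do not enter this estimate. In respiratory epithelium 4 were higher and 1 lower, where 17.4% of genes passed, 9.89% higher and 7.47% lower, led by Cldn10 at 2.90 ± 0.22 and Cldn7 at 1.83 ± 0.24, with Cldn1 lower at -3.60 ± 0.82. In olfactory epithelium 3 were higher and 2 lower, where 27.2% of genes passed, 14.8% higher and 12.4% lower: Cldn7 by 1.97 ± 0.24, Cldn3 by 1.94 ± 0.14 and Cldn6 by 1.55 ± 0.15, against Cldn1 at -3.96 ± 0.81 and Cldn4 at -0.83 ± 0.18. Basal keratinocytes had 0 higher and 4 lower, where 28.6% of genes passed, 17.3% higher and 11.2% lower, and suprabasal cells had Cldn1 higher (3.71 ± 0.32) and 4 lower, where 28.5% passed, 16.5% higher and 11.9% lower.

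Cldn5 was at 884 and 848 CPM in control endothelium, against 609 and 700 CPM in mutant endothelium, from 808, 424, 318 and 480 UMIs. It was detected in 50 of 53, 25 of 27, 28 of 28 and 51 of 62 endothelial cells of the 4 libraries. Both mutant values lay under both control values. The groups likewise did not overlap, in 1 direction or the other, for 37.9% of the 7337 genes tested in endothelium. With the 4 libraries pooled, Cldn5 was at 774 CPM in endothelium, 0.230 CPM in mesenchyme and 0.755 CPM in epithelium, which put endothelium 3367-fold above mesenchyme (95% counting interval 2098 to 5792) and 1025-fold above epithelium (585 to 1987). Counting intervals cover sampling of UMIs only. Mural cells had 0 Cldn5 UMIs, macrophages 2, and the 123 glial cells 31 UMIs in 10 cells, at 40.4, 0, 32.1 and 12.3 CPM in the 4 libraries.

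Cldn11 was the claudin of mesenchyme, and was uneven within it. Meninges-like mesenchyme, gated by 8 markers that include Foxc1, Aldh1a2 and Crabp2, was 2.34% of cells and held 40.4% of Cldn11 UMIs. Its level was 160 and 306 CPM in the control libraries, against 79.8 and 316 CPM in the mutants (mean 215 ± 115, SD, n = 4), with a UMI in 158 of 322 cells. Cells with both Itgbl1 and Crym, 1.23% of cells, held 12.96% of the UMIs at 147 and 153 against 105 and 152 CPM (mean 139 ± 22.9), with a UMI in 76 of 169 cells. This pair of markers was taken from an earlier grouping of the same cells in which Cldn11 had been seen, so the high level there is a description. All other mesenchyme was at 9.42 and 14.3 against 5.28 and 8.63 CPM, below every meninges-like and Itgbl1 value, and the ranges of the latter classes overlapped. In mutant 1 a single meninges-like cell held 21 of the 50 UMIs. The 123 glial cells had 0 Cldn11 UMIs, and so had suprabasal keratinocytes and periderm, while basal keratinocytes were at 1.99 to 8.96 CPM.

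Cldn12 was low and differed little between the broad classes. It was at 7.54 and 5.03 CPM in the control libraries, against 9.13 and 7.78 CPM in the mutants in epithelium, and at 5.82 and 6.91 against 6.54 and 6.65 CPM in mesenchyme (mean 6.48 ± 0.465, SD, n = 4). Endothelium was at 5.47, 6.00, 11.5 and 1.46 CPM, from 1 to 6 UMIs per library, and overlapped both. Olfactory epithelium stood higher in 3 libraries, at 18.8, 20.3 and 20.8 CPM against 5.32 CPM in mutant 2, and did not pass against the other subclasses (1.52 ± 0.56, edgeR adjusted p = 0.0509). Control 2, among the 3, had 5 olfactory cells, under the 15 that this comparison required, so it did not enter the estimate. Macrophages had 1 UMI in 241 cells. No contrast between the broad classes passed for Cldn12 (adjusted p = 0.413 for epithelium against mesenchyme).

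To see which claudins occurred in the same cell, each cell was thinned to 2000 UMIs, which left 1230 epithelial, 160 endothelial and 9967 mesenchymal cells. Macrophages, which should lack these genes, gave the background at the same depth: 0 of 229 macrophages had a UMI of Cldn1, Cldn3, Cldn4, Cldn6, Cldn7, Cldn11 or Cldn12, which allows a share of up to 1.31%, and Cldn5 and Cldn10 were each seen in 0.437%. In endothelium 64.4% of cells (exact 95% interval 56.4 to 71.8%) had Cldn5 and no other of the 9, and 33.8% had none. No endothelial and no epithelial cell at this depth held Cldn5 together with Cldn3, Cldn4, Cldn6 or Cldn7, which allows shares of up to 1.88% and 0.244%. These shares leave out cells passing more than 1 gate, which had been set aside beforehand. The set-aside cells held 20.9% of Cldn5 UMIs and 4.50 to 5.75% of those of the other 4. Both the epithelium and the endothelium gate were passed by 0, 0, 5 and 4 cells (control 1, control 2, mutant 1, mutant 2). With all UMIs kept, Cldn5 alone was seen in 75.9% of endothelial cells, and 4 of 170 endothelial and 6 of 1260 epithelial cells had Cldn5 with a UMI of those 4. In mesenchyme 94.7% of thinned cells had none of the 9.

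At least 2 claudins were found in 74.1% of thinned periderm cells, 56.2% of olfactory and 49.5% of respiratory epithelial cells, but in 6.47% of suprabasal and 3.62% of basal keratinocytes. Without thinning these shares were 100.0%, 96.9%, 95.9%, 46.6% and 29.4%. The most frequent set in periderm was Cldn3 with Cldn4 and no other (25.9%), and in olfactory epithelium Cldn3 with Cldn7 (16.9%). In respiratory epithelium it was, after cells with none (17.5%), Cldn7 alone (15.5%), followed by Cldn3 with Cldn7 (8.25%) and Cldn7 with Cldn10 (7.22%). Suprabasal keratinocytes had Cldn4 alone in 23.4% and Cldn1 alone in 11.4% of cells. Pairs were set beside the product of their separate shares: Cldn3 and Cldn7 shared 33.1% of olfactory cells against a product of 32.8%, while Cldn3 and Cldn4 shared 66.7% of periderm cells against 52.0%. Over all epithelium the Cldn3 and Cldn7 pair was in 7.48% of cells against 2.96%, a pooled value that mixes the subclasses.

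**Figure D3:**
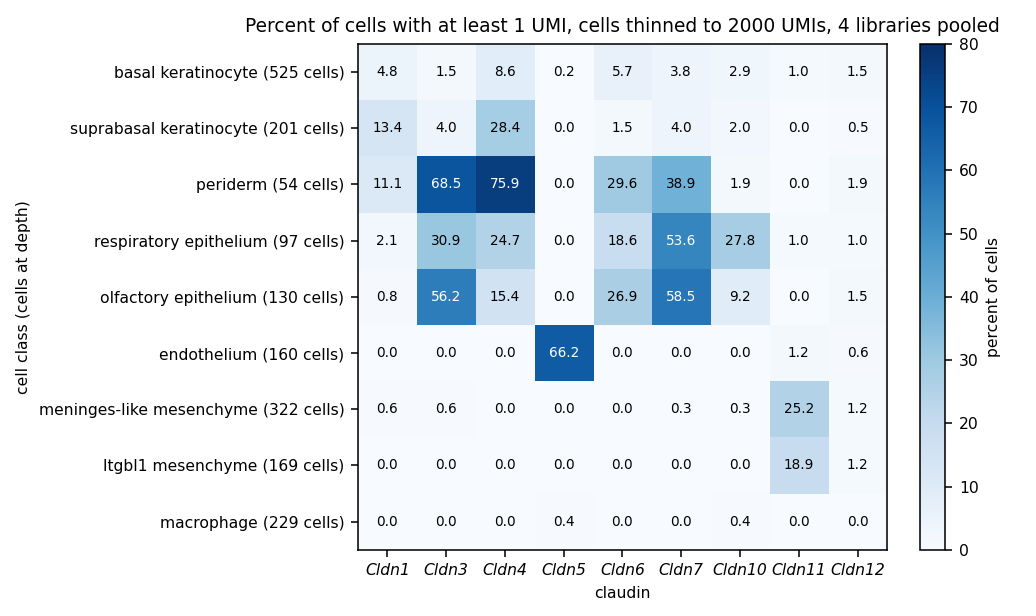
Percent of cells with at least 1 UMI of each claudin (columns), after thinning every cell to 2000 UMIs, in 9 cell classes (rows, with the number of cells), 4 libraries pooled; darker blue is a higher percent. Periderm is dark for Cldn3 and Cldn4, olfactory and respiratory epithelium for Cldn7, endothelium for Cldn5 and both mesenchymal classes for Cldn11, while macrophages are at 0.437% or less.

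Between control and mutant, none of the 9 claudins passed the edgeR test (adjusted p under 0.05) in any class tested, with 2 libraries against 2. The classes tested were all cells, epithelium, basal and suprabasal keratinocytes, endothelium, mesenchyme, and its meninges-like, Itgbl1 and other cells. Periderm, respiratory and olfactory epithelium and the neuronal lineage did not hold 20 cells in every library and were not tested. Claudins with too few UMIs in a class were not tested there. In endothelium, where 0.123% of 7337 genes passed, Cldn5 was the 1 claudin with enough UMIs to test: its log2 difference was -0.45 ± 0.18 (adjusted p = 0.574, unadjusted p = 0.0245), and its values did not overlap between groups, as was the case for 37.9% of genes. It stayed below the control level without the highest cell of each library (741 and 717 against 528 and 648 CPM), and with cells that passed other gates too (776 and 778 against 534 and 515 CPM, -0.56 ± 0.16, adjusted p = 0.357). The difference ranged from -0.58 to -0.33 over the alternatives and passed in none of them. The endothelium of mutant 2 held mesenchymal marker transcripts at 672 CPM summed over 10 markers against 11.5 to 44.0 CPM in the other libraries, and the summed lymphatic markers were at 214 and 348 CPM in the control libraries, against 107 and 166 CPM in the mutants, with Lyve1 at 0 in 3 libraries. The part of either in the Cldn5 values was not tested.

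In epithelium 0.0% of 13044 genes passed, and 3 of the 8 claudins tested (Cldn4, Cldn7 and Cldn12) did not overlap between groups, against 37.6% of genes. The median difference of the 8 was -0.06 on the log2 scale, against 0.00 for all genes. Cldn4 was at 115 and 269 CPM in the control libraries, against 89.3 and 106 CPM in the mutants (-0.97 ± 0.36, adjusted p = 0.925), and the high control was control 2, at 206 CPM without its highest cell. Cldn7 was at 165 and 109 against 189 and 186 CPM (0.40 ± 0.17, adjusted p = 0.925), and Cldn10 at 44.6 and 3.77 against 78.0 and 38.4 CPM (0.96 ± 0.62). Cldn3, at 149 and 155 against 150 and 143 CPM, differed by -0.08 ± 0.11 (adjusted p = 0.954), and Cldn6, at 61.7 and 62.9 against 55.0 and 64.9 CPM, by -0.08 ± 0.14, both less than the SE. Periderm, where Cldn4 was highest, made up 6.02% and 12.8% of epithelial cells in controls and 2.08% and 2.16% in mutants. Respiratory cells, where Cldn7 was high, made up 8.38% and 0.0% in controls and 9.52% and 7.91% in mutants. Olfactory cells, where Cldn7 was also high, made up 12.3% and 4.0% in controls and 11.6% and 9.35% in mutants, so control 2 alone was low in both. The part of these shares in the epithelial totals was not tested. Cldn4 differed by -0.37 ± 0.21 in basal keratinocytes, where the groups did not overlap and the stricter gate turned the direction (0.21), and by -0.10 ± 0.27 in suprabasal ones, where the stricter gate (0.045), stricter cells (0.096) and leaving out control 1 (0.071) did. Without control 1, which leaves control 2 as the lone control, 3 claudins passed, Cldn4 (-1.52), Cldn7 (0.73) and Cldn10 (3.91), as did 1081 of 13341 genes.

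In basal keratinocytes, where 0.0658% of 10644 genes passed, 5 of 8 claudins did not overlap between groups, against 37.3% of genes, and their median difference was -0.20, against 0.00 for all genes. Cldn1 was at 14.1 and 5.53 CPM in the control libraries, against 26.5 and 23.2 CPM in the mutants, a log2 difference of 1.10 ± 0.33 (adjusted p = 0.696). It passed without control 1 (2.14, adjusted p = 0.0448), as did Cldn10 (8.46, adjusted p = 0.00455), when the lone control has 4 Cldn1 UMIs and 0 Cldn10 UMIs and 219 of 10967 genes passed. In suprabasal keratinocytes 0.0% of 6762 genes passed and 2 of 5 claudins (Cldn6 and Cldn7) did not overlap, against 34.5% of genes. Cldn7 there was at 17.7 and 14.0 against 109 and 41.7 CPM (2.13 ± 0.51, adjusted p = 0.364), from 13, 3, 66 and 17 UMIs in 6, 2, 5 and 3 cells, and 1 cell of mutant 1 held 44 of its 66 UMIs. It passed without control 2 (2.03; 69 of 8337 genes passed) and without mutant 2 (2.63; 180 of 8248). Respiratory marker transcripts in the suprabasal gate moved alongside, at 95.4 and 0.0 CPM summed over 9 markers in controls and 265 and 157 CPM in mutants, and their part in the Cldn7 values was not tested.

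In mesenchyme 0.0% of 16161 genes passed, and 1 of 6 claudins (Cldn1, at 1.81 and 1.83 against 1.50 and 0.853 CPM) did not overlap between groups, against 40.4% of genes. Cldn11 was at 20.4 and 36.2 CPM in the control libraries, against 9.94 and 21.6 CPM in the mutants (-0.88 ± 0.37, adjusted p = 0.662), so mutant 2 lay inside the control range. Within subclasses it differed by -0.26 ± 0.51 in meninges-like cells (0.0334% of 8974 genes passed, and the groups overlapped, where 37.4% of genes did not), by -0.22 ± 0.26 in Itgbl1 cells (0.0% of 6783) and by -0.80 ± 0.27 in all other mesenchyme (adjusted p = 0.540; 0.0% of 15777 passed), where its values did not overlap, like those of 40.2% of genes. The meninges-like difference turned direction without control 2 (0.30) and without mutant 1 (0.42) and was -1.57 without mutant 2, and the Itgbl1 difference turned without mutant 1 (0.012) and was -0.51 without mutant 2. Cldn11 passed in mesenchyme (-1.25) and in other mesenchyme (-1.09) without control 1, as did Cldn10 (1.14 and 1.06), when 1147 of 16532 and 1126 of 16243 genes passed. Meninges-like cells made up 3.69% and 4.69% of mesenchyme in controls and 2.53% and 2.20% in mutants, and the part of this in the Cldn11 total was not tested. Over all cells 0.0% of 18080 genes passed and 2 of 9 claudins (Cldn4 and Cldn12) did not overlap, against 37.9% of genes. Cldn4 over all cells was at 22.0 and 22.4 against 15.8 and 16.9 CPM, a log2 difference of -0.48 ± 0.10 (adjusted p = 0.909, unadjusted p = 0.0035), and Cldn3, Cldn7 and Cldn10 passed without control 1 (1.05, 1.78 and 2.35), as did 410 of 18642 genes.

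**Figure D4:**
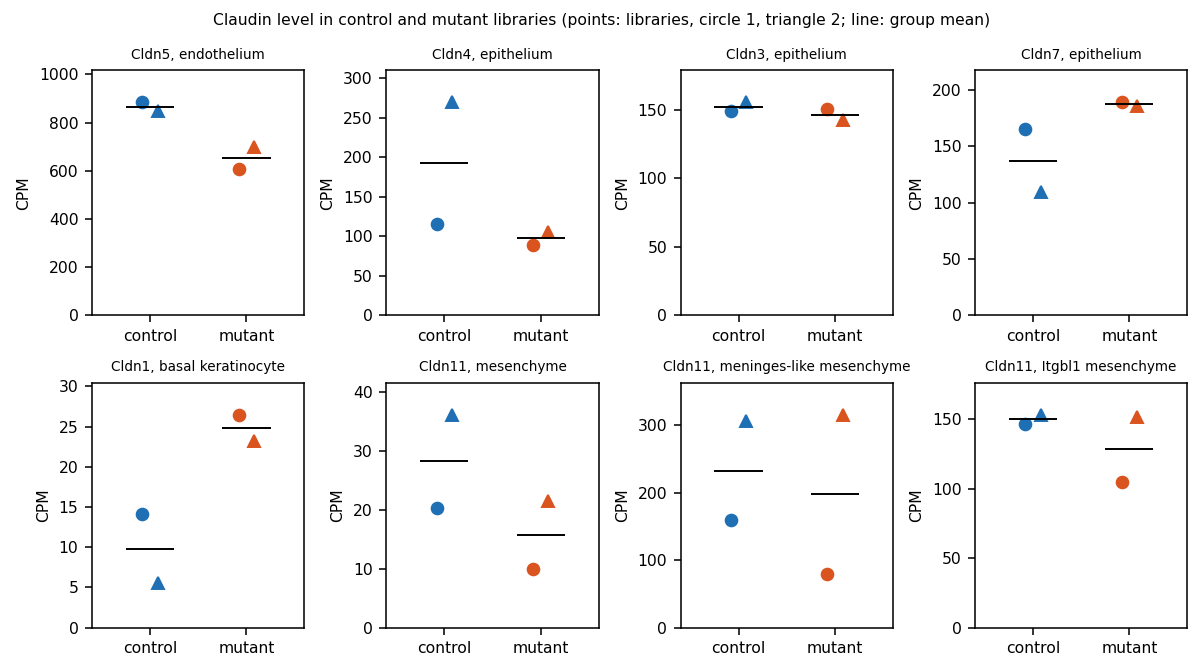
CPM of claudins in control and mutant libraries (vertical axes start at 0), 1 point per library, circle for replicate 1 and triangle for replicate 2, with a line at the group mean. Cldn5 in endothelium lies lower in both mutants (609 and 700 CPM) than in both controls (884 and 848 CPM), where 37.9% of genes did not overlap between groups. Cldn3 in epithelium lies at 143 to 155 CPM in all 4 libraries, and the mutant values of Cldn11 in meninges-like mesenchyme (79.8 and 316 CPM) lie on either side of the control values.

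**Figure D5:**
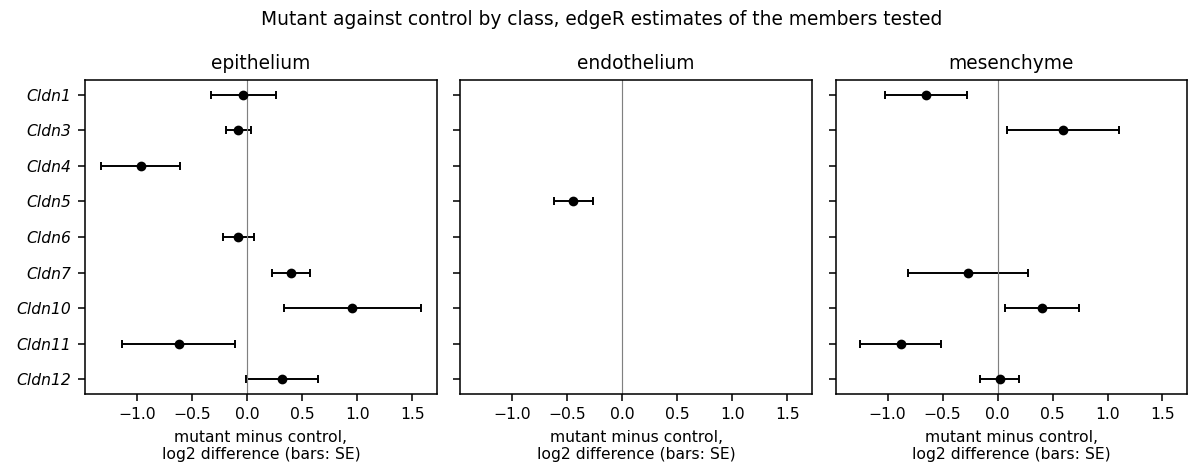
Mutant minus control log2 difference from edgeR (horizontal axis) for each claudin with enough UMIs to test in epithelium, endothelium and mesenchyme; bars are the SE. Cldn4 in epithelium (-0.97) and Cldn11 in mesenchyme (-0.88) lie farthest below 0 and Cldn10 in epithelium (0.96) farthest above, and none passed the adjusted threshold.

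No claudin passed a test of whether the mutant difference itself varied between classes: 0.0% of genes passed for epithelium against mesenchyme, 0.477% for endothelium against mesenchyme and 0.276% for epithelium against endothelium, and Cldn5 in endothelium against mesenchyme was at -0.88 ± 0.72. The share of epithelial cells with at least 2 claudins was 22.7% and 19.2% in controls and 18.8% and 17.5% in mutants, a difference of -2.79 percentage points (exact permutation p = 0.33, the smallest that 2 against 2 allows). Cells with both Cldn3 and Cldn4 were 6.67% and 14.4% of epithelium in controls and 3.94% and 4.25% in mutants (-6.44 points, exact permutation p = 0.33). Cldn5 alone was seen in 68.6% and 61.5% of control and 66.7% and 60.7% of mutant endothelial cells (-1.39 points, exact permutation p = 0.67).

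Other tight junction genes were read from a list of 22 partners, with genes used in the gates left out of the contrasts between classes. Against mesenchyme, 14 of 21 were higher in epithelium and 3 lower (median log2 difference 2.24, against 0.00 over all genes, of which 29.2% were higher and 29.9% lower). Those higher included the apical polarity gene Crb3 (7.96 ± 0.34), the claudin-binding scaffold gene Tjp3 (4.39 ± 0.31) and occludin, Ocln (5.13 ± 0.26). Against endothelium, 11 of 21 were higher in epithelium and 8 lower (median 1.20, against 0.15 over all genes, of which 27.1% were higher and 20.2% lower). Those lower were led by the endothelial adhesion gene Esam at -10.10 ± 0.24 (0.455 against 398 CPM), with Jam2 at -5.96 ± 0.46 and the scaffold gene Tjp1 at -2.29 ± 0.09. In suprabasal against basal keratinocytes 9 of 14 were higher and 1 lower (median 0.68, against 0.00 over all genes, of which 13.9% were higher and 14.8% lower), with Ocln at 2.00 ± 0.23, beside the rise in Cldn1 and Cldn4. Of 19 listed epithelial regulators, 15 could be tested and 10 were higher in epithelium than in mesenchyme and 4 lower (median 4.62), against the same shares of all genes as above, 29.2% and 29.9%. The 4 lower were the E-box repressor genes Zeb1 (-6.43 ± 0.23), Zeb2 (-7.50 ± 0.23), Snai1 (-3.90 ± 0.19) and Snai2 (-0.59 ± 0.11). In suprabasal against basal cells 8 of 13 regulators were higher and 2 lower (median 1.155), against 13.9% and 14.8% of all genes, led by the transcription factor genes Ovol1 (3.68 ± 0.18) and Grhl1 (3.53 ± 0.23). Of the 10 testable regulators of endothelium, 8 were higher in endothelium than in mesenchyme and 1 was lower (median 1.99, against -0.14 over all genes, of which 19.9% were higher and 26.3% lower), with Sox17 at 11.19 ± 0.35 and Fli1 at 4.16 ± 0.12.

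Between control and mutant, 0 of 20 tight junction genes (median log2 difference -0.02) and 0 of 18 epithelial regulators (median -0.18, against 0.00 over all genes) passed in epithelium (0.0% of all genes did), where Klf4 was at 139 and 158 against 107 and 105 CPM (-0.51 ± 0.13, adjusted p = 0.925). In mesenchyme 0 of 19 tight junction genes passed (median -0.13; 0.0% of all genes passed), with Jam2 at 11.02 and 11.4 against 5.44 and 6.26 CPM (-0.98 ± 0.16, adjusted p = 0.287). In endothelium 0 of 11 tight junction genes passed (median -0.10), and 1 of 11 endothelial regulators did (median 0.08), where 0.123% of 7337 genes passed. The forkhead gene Foxf2 was at 21.9 and 32.0 CPM in controls (36 UMIs) and had 0 UMIs in both mutants (edgeR adjusted p = 0.0247), at least 10.2-fold lower with a floor of 3 counts over the group. The call was lost with DESeq2's Wald test (adjusted p = 0.559) and without control 2 (adjusted p = 0.0712).

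Genes with a profile most like each claudin were ranked by Pearson's r of log2(CPM + 1) over the mean levels of the 12 classes that held 20 cells or more in each library, among 13949 genes that were neither claudins nor markers. Periderm, respiratory and olfactory epithelium and the olfactory neuronal lineage were not among the 12. Epithelium entered only as basal, suprabasal and other epithelial cells, so the ranking lacks the subclasses where several claudins were highest. The classes share libraries, and no p is given. Cldn4 was closest to Crb3 (r = 0.998), Ttll10 (0.995) and Ap1m2 (0.994), and Cldn3 to Reg3g (0.976), Elf3 (0.975) and Sp8 (0.975). Cldn1 was closest to the polarity gene Pard6b (0.958), Cldn6 and Cldn7 both to Gm13648 (0.993 and 0.989), and Cldn10 to Fam131c (0.956). Cldn5 was closest to Vwf (0.921), the von Willebrand factor gene, followed by Ppp1r16b (0.914), and Cldn11 to Ndufa5 (0.922) and Cldn12 to Zfp280d (0.967).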

How the data were processed

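Single-cell 3-prime libraries of 4 samples were read from the UMI count matrices that the authors deposited, made with Cell Ranger 8.0.1 per the file headers; the submitters' processing notes name Cell Ranger 4, Seurat 4.3.0 and the mm10 build, and the aligner's strand setting is not given in the sources used here. The labels speak of 5 captured samples, of which the other was not analysed here, and of 2 sequencing providers without linking them to libraries.

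Barcodes under 500 genes or over 10% mitochondrial UMIs were dropped (13739 of 15863 remained). Scrublet (scanpy 1.11.5) marked 5 doublets by its own threshold and so did not work, and doublets were not removed except in an alternative. Classes were gated by the number of detected markers: at least 4 of 12 for epithelium (102 cells at and 102 just below the threshold), 5 of 11 for endothelium (26 and 41), and 5 of 10 for mesenchyme (1043 and 536). Subclasses were gated likewise, with 187 basal cells at and 158 just below, 115 and 213 suprabasal, 44 and 108 periderm, 52 and 72 respiratory, 93 and 160 olfactory, and 266 and 976 meninges-like. Counts were summed per class and library and scaled to CPM; shares of cells were thinned to 2000 UMIs, leaving out 586 cells, with exact binomial intervals at 95% and a floor of 3 counts, both for counting error only. Genes were tested in edgeR 4.0.16 (TMM, default expression filter, quasi-likelihood, Benjamini-Hochberg, adjusted p under 0.05), with class sums of at least 20 cells and, between classes, the library as a block; the SE is the log2 difference over the square root of F. The scripts were checked on simulated data. Alternatives were DESeq2 1.42.0, its size factors, no expression filter, stricter cells (at least 1000 genes, at most 5% mitochondrial), stricter gates, doublet scores removed, the replicate block, and each library left out. P-values measure the spread between these libraries, which may be technical.

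The text names the 9 claudins, further claudins with at least 10 UMIs in a class, list genes past the threshold or with the lowest p, and for each claudin up to 3 genes of the most similar profile among those with at least 200 UMIs. Members and lists were chosen with earlier results of these data known. The comparison of 5 epithelial subclasses, the endothelium gate that allows other gates, levels without the highest cell, and the motifs were chosen after seeing the data. Positions and promoters came from GENCODE M21 and RefSeq (both GRCm38); 32158 of 32285 gene rows matched GENCODE.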

Additional observations from a re-analysis of the deposited data

Results flagged for a closer look

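In 4 listed genes the mutant difference itself varied between classes past the adjusted threshold (edgeR interaction term, 2 libraries against 2). Tek, an endothelial receptor gene that is also a gate marker, had a mutant difference 2.04 ± 0.27 (SE, log2) higher in endothelium than in mesenchyme (adjusted p = 4.3e-11). It was at 176 and 186 CPM in control and 301 and 194 CPM in mutant endothelium, and 8.62 and 14.1 against 3.70 and 3.41 CPM in mesenchyme. By edgeR neither class passed alone (0.39 ± 0.22, adjusted p = 0.737 in endothelium, and -1.70 ± 0.26, adjusted p = 0.278 in mesenchyme). Class levels of a gate marker depend on the gate, and cells passing both gates (8, 4, 8 and 38 in controls 1 and 2 and mutants 1 and 2) were set aside. The part of this in the Tek and Cdh5 values was not tested. Cdh5, VE-cadherin and likewise a gate marker, had a difference 1.09 ± 0.29 higher in endothelium (adjusted p = 0.0345), at 847 and 862 against 1052 and 779 CPM there (0.05 ± 0.18) and at 2.93 and 5.99 against 0.849 and 3.53 CPM in mesenchyme (-1.06 ± 0.60). Foxf2 had a fitted difference 10.85 lower in endothelium than in mesenchyme, that is -10.85 ± 2.19 (adjusted p = 0.000426), a value that depends on the 0 UMIs of both mutants and is no bound, while mesenchyme was at 8.85 and 5.92 against 9.14 and 5.06 CPM. Lsr, a tricellular junction gene, had a difference 4.70 ± 0.92 higher in epithelium than in endothelium (adjusted p = 0.00765), at 66.7 and 61.0 against 55.8 and 61.2 CPM in epithelium and 15, 19, 0 and 1 UMIs in endothelium.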

How the results depend on the processing

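As first fitted, no claudin passed between control and mutant in any tested class, and the number called moved with the libraries. The number of all genes called moved with the libraries too, also for the interaction of epithelium against mesenchyme. Whether the claudins moved more than other genes was not tested. The first fit tested 9 claudins over all cells, 8 each in epithelium and basal keratinocytes, and 6 in mesenchyme. It tested 5 each in suprabasal keratinocytes and other mesenchyme, and the numbers tested with a library left out may differ. Leaving out each library in turn gave 0 to 3 called over all cells, 0 to 3 in epithelium, 0 to 2 in basal keratinocytes, suprabasal keratinocytes, mesenchyme and other mesenchyme, and 0 to 1 for the interaction of epithelium against mesenchyme; a lone library in a group is assumed to vary like the others. Without the expression filter 2 were called in epithelium, Cldn4 (-0.95) and Cldn10 (0.96), and 1 each in suprabasal keratinocytes (Cldn7, 2.13), mesenchyme (Cldn11, -0.88) and other mesenchyme (Cldn11, -0.80), when 327 of 22132, 144 of 16679, 564 of 24999 and 527 of 24655 genes passed. Same-numbered libraries correlated at -0.05 to 0.14 in their deviations. With 2 libraries a group the deviations mirror each other, so this cannot settle whether the numbers pair the samples. With a replicate block 1 was called in suprabasal keratinocytes (Cldn7, 2.31) and 1 in mesenchyme (Cldn11, -0.92), when 35 of 6762 and 44 of 16161 genes passed.

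Some differences between control and mutant turned direction. Leaving out each library in turn gave Cldn6 in epithelium from -0.20 (without mutant 2) to 0.030 (without mutant 1), Cldn11 in meninges-like cells from -1.57 (without mutant 2) to 0.42 (without mutant 1; 0.30 without control 2), and Cldn11 in Itgbl1 cells from -0.51 (without mutant 2) to 0.012 (without mutant 1). From without control 2 to without control 1, Cldn10 ran from -0.027 to 1.14 in mesenchyme and from -0.081 to 1.06 in other mesenchyme, Cldn4 in suprabasal keratinocytes from -0.22 to 0.071, and over all cells Cldn3 from -0.15 to 1.05 and Cldn7 from -0.073 to 1.78. Cldn10 in basal keratinocytes ran from -0.039 (without mutant 1) to 8.46 (without control 1), and Cldn11 between epithelium and endothelium from -0.65 (without mutant 1) to 0.63 (without mutant 2). Cldn4 was 0.21 in basal keratinocytes under the stricter gate, and 0.096 with stricter cells and 0.045 with the stricter gate in suprabasal ones. The causes were not tested. With all UMIs the difference in epithelial cells with at least 2 claudins was -9.20 points, and with at least 2 UMIs required that in Cldn5 alone was 5.05 points. Of the values of single claudins under alternatives, 407 kept direction and side of the threshold, 22 gained a call, 5 lost one and 14 reversed. The stricter gate left too few meninges-like cells to fit. Depth and n limit the precision: endothelium rests on 27 to 62 cells a library and periderm on 7 to 23.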

Other observations

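Of 23 further claudin rows, 7 had at least 10 UMIs in a class. Cldn23 was at 254 ± 64.0 CPM (SD, n = 4) in periderm, the subclass in which Cldn3 and Cldn4 were also highest, and at 27.5 and 38.4 CPM in control and 22.6 and 20.1 CPM in mutant epithelium. Cldn9, the neighbour of Cldn6, was at 110 ± 35.1 CPM in olfactory epithelium and at 29.0 and 20.7 against 39.99 and 34.9 CPM in all epithelium. Cldn8 was at 9.72 and 13.2 against 12.2 and 11.003 CPM in epithelium. Cldn34c1 lay outside the epithelial pattern: in mesenchyme it was at 5.92 CPM in control 1, 6.99 in mutant 1 and 6.71 in mutant 2, but at 0.564 CPM in control 2, the library in which Cldn10 was also low. Cldn13 had 12 UMIs in erythroid cells, and Cldn15 and Cldn20 had 40 and 30 UMIs in all cells.

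Cells of the olfactory neuronal lineage, 0.699% of cells, held 17.7% of Cldn3 UMIs, 15.9% of Cldn7 and 11.5% of Cldn6. Of these 96 cells, the 32 that also passed the epithelium gate (0 of them in control 2) were at 356 CPM of Cldn3, 422 of Cldn7, 108 of Cldn6 and 74.3 of Cldn4, pooled over libraries. The 64 that did not were at 281, 114, 6.34 and 4.22 CPM. All 4 were lower in the cells below the epithelium gate, which may still hold up to 3 of its markers. Their Cldn3 level was nonetheless above the 149 CPM of epithelium pooled over libraries. Their levels of Cldn7, Cldn6 and Cldn4 were below those of epithelium (171, 60.6 and 121 CPM). These differences were not tested.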
